A study of Mus musculus with 10 samples.

Results

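The CLK kinases (Clk1, Clk2, Clk3 and Clk4), the L-type cyclins (Ccnl1 and Ccnl2), the LUC7L proteins (Luc7l, Luc7l2 and Luc7l3) and the splicing factor gene Cwc22 are 10 of the 23235 gene symbols in each of 2 deposited expression tables. They were picked by symbol, as splicing regulators that had stood out in these same measurements, so their differences between knockdown and control are described here and not tested. The study introduced plasmids into radial glia, the stem cells of the embryonic mouse cortex, by in utero electroporation at embryonic day 13, and sorted GFP-positive cells by flow cytometry at embryonic day 15. The plasmids carried an shRNA against Chd8, a chromatin remodeler gene linked to autism, or a control shRNA. A new set held 3 Chd8 knockdown libraries and 3 control libraries, both numbered 10, 11 and 12. A first set held 2 Chd8 knockdown libraries and 2 control libraries, both numbered 1 and 2, and each library came from the pooled cortices of 3 to 5 embryos. By the names of the tables the new set used shRNA1 and the first set shRNA2, so shRNA, set and table change together and cannot be told apart. No source used here gives the mouse strain or the promoter driving the shRNA, and all embryos carried electroporated plasmid and GFP, so no group was untouched by the procedure.

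CLK kinases sit in the nucleus and phosphorylate SR proteins, the serine- and arginine-rich factors that mark exons for the splicing machinery. Cyclins L1 and L2 also carry a serine- and arginine-rich domain and act with the kinase CDK11 on splicing. The LUC7L proteins are the mammalian relatives of yeast Luc7, a component of the U1 small nuclear ribonucleoprotein (snRNP) that recognizes the start of introns, and Cwc22 brings eIF4A3 to the spliceosome so that an exon junction complex can be laid down. Transcripts of several of these genes, Clk1 and Clk4 among them, are known to keep introns and wait in the nucleus until they are spliced on demand.

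Promoter sequences were available for 8 of the 10 genes from RefSeq (build GRCm38.p6), matched by symbol; Clk1 and Luc7l had no entry. The 250 bases before the annotated start are shown for the 3 genes that held a match to either of 2 motifs (Clk4, Ccnl1 and Cwc22) and for 2 that held none (Luc7l3 and Clk3), each read 5′ to 3′ on the gene's own strand. They lie at chr11:51262864-51263113 (plus strand, Clk4), chr3:65958250-65958499 (minus strand, Ccnl1), chr2:77946357-77946606 (minus strand, Cwc22), chr11:94321964-94322213 (minus strand, Luc7l3) and chr9:57765115-57765364 (minus strand, Clk3). Capitals mark the matches.
Clk4: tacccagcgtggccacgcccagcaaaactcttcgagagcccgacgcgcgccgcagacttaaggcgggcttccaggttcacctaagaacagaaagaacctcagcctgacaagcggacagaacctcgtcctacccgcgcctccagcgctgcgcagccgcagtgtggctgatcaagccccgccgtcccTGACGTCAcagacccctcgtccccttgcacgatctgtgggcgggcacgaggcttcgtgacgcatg
Ccnl1: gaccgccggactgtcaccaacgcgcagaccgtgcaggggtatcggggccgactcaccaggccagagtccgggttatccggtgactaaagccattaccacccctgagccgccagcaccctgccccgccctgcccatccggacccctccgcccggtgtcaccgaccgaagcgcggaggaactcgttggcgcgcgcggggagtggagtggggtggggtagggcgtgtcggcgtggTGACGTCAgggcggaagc
Cwc22: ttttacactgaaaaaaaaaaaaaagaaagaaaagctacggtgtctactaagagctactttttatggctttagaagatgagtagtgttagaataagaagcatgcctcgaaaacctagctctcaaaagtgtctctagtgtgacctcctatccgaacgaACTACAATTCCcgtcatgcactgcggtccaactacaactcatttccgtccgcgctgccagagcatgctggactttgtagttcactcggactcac
Luc7l3: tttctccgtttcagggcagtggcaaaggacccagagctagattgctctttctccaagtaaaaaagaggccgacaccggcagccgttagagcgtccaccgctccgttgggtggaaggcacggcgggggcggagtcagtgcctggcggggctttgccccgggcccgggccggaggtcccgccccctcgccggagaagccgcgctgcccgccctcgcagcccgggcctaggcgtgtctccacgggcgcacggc
Clk3: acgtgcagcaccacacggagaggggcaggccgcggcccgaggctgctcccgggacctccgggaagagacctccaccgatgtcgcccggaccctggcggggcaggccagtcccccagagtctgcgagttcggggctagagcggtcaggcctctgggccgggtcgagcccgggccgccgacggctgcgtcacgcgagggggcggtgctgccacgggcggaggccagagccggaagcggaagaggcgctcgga
The motifs were chosen after the sequences had been read. One is the cyclic AMP response element TGACGTCA, a palindrome that reads the same on both strands. It was found in 2 of the 8 promoters, starting 65 bases before the start of Clk4 (position -65) and 18 bases before that of Ccnl1 (position -18), and in 508 of 32851 mouse promoters of the same length (1.55%). The other is ACTACAATTCC, the core of the ZNF143 motif, searched on both strands. Its letters were copied from the Cwc22 promoter itself, so the match there was fixed in advance. This motif was found in 1 of the 8, at position -94 of Cwc22 from which it was taken, and in 86 of the 32851 (0.262%). Ccnl2, Luc7l2, Luc7l3, Clk2 and Clk3 held neither. Of these Ccnl2, Luc7l2 and Luc7l3 were lower without overlap in the new-set knockdown libraries, as were Clk4, Ccnl1 and Cwc22 and 17.1% of all tested genes. A link between motif and level was not tested. The 2 motifs did not overlap, and a match is a run of letters, not a measured binding site. The promoter windows differed in composition, with 75.2% G and C in Clk3, 70.4% in Ccnl1, 69.6% in Luc7l3 and 64.4% in Clk4, against 42.8% in Cwc22.

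Expression was given as FPKM (fragments corrected for transcript length and sequencing depth), and the tables were made separately. Column totals ran from 539578 to 2066798 FPKM, with 6.52% to 68.2% of them in microRNA and small nucleolar RNA genes. The number of reads is not given, but the spacing of low values put the depth of new-set libraries at 0.957 to 1.39 times that of control library 10, and the first-set knockdown libraries at 0.526 and 0.528 times control library 1. The first-set knockdown libraries stood apart in another way, with a mean of 1.39 and 0.993 FPKM over 1118 olfactory receptor genes, which cortical cells should not use, against 0.0181 and 0.0217 FPKM in first-set controls and at most 0.00554 FPKM in the new set. The lowest value of any of the 10 genes in any library was 5.27 FPKM, and each of the 10 stood above the olfactory receptor mean in every library. Radial glia, intermediate progenitor and cortical neuron markers were present throughout, with none at 0 in every library of a group, and the 6 endothelial markers summed to at most 16.3 FPKM. Chd8, the target, had 2.09, 1.84 and 1.92 FPKM in new-set knockdown libraries, against 3.59, 3.30 and 4.02 FPKM in controls, which is 53.6% of the control mean. With knockdown in the first set it had 8.55 and 9.23 FPKM, against 12.4 and 13.8 FPKM in controls, or 68% of the control mean. The groups did not overlap in either set, but 17.1% of new-set and 40.4% of first-set tested genes were likewise lower without overlap. New-set Chd8 fell by 0.65 on the log2 scale (SE 0.117, limma adjusted p = 0.0213). First-set Chd8 fell by 0.51 and did not pass the threshold of 0.05 (SE 0.233, limma adjusted p = 0.152). There 27% of tested genes had a lower fold change. A limma fit of both sets together gave a fall of 0.58 for Chd8 (SE 0.103, adjusted p = 0.00285).

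All 10 genes passed the filter of a mean of 1 FPKM in both tables. Fold changes below are log2 differences of FPKM + 1, knockdown minus control. In the new set 8 of the 10 genes were lower in every knockdown library than in every control library, a pattern shown by 17.1% of all tested genes, and 7 of the 10 had a limma adjusted p under 0.05, as did 8.99% of all tested genes. First-set values were lower without overlap for 4 of the 10 (40.4% of all tested genes), higher without overlap for Luc7l2 alone (27.4% of all), and 3 were past the limma threshold (23.8% of all). All of these calls were downward, as were those of 5.15% of new-set tested genes and 10.7% of those in the first, where upward calls took 3.84% and 13.2%. The joined fit of both sets put 8 of the 10 past the threshold downward (29.9% of all either way, 20.5% downward, 9.37% upward). Its difference between sets (new minus first) put 6 past it (32.5% of all), 4 negative (9.98% of all) and 2 positive (22.5% of all). With the replicate number as a block, the new-set counts were 8 of the 10, Clk2 included, and 21.7% of all. Since the genes were chosen for these contrasts, nothing is read from those counts. The median log2 fold change of the 10 genes was -0.56 in the new set, beside 0.02 over all tested genes, and -0.24 in the first set, beside -0.15. That first-set median was -0.07 after rescaling each library by the median of ratios, beside 0.01 over all genes, and -0.36 after subtracting the olfactory receptor mean as background, beside -0.41 over all genes. Without control library 1 it was -0.47. These are bulk samples, so fewer cells of a type and less RNA per cell cannot be told apart.

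**Figure D1:**
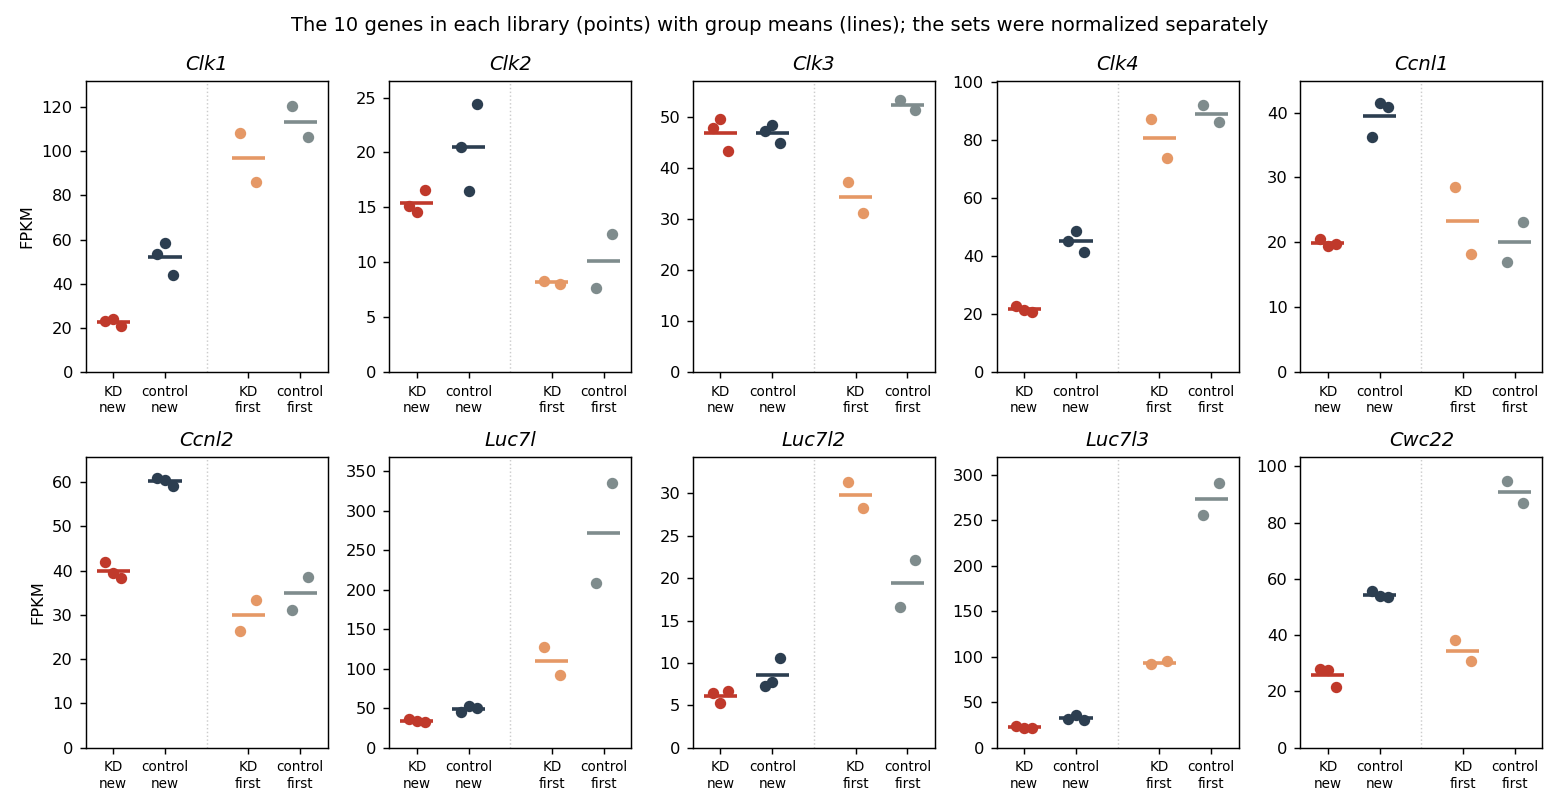
FPKM of each of the 10 genes (vertical axes, linear from 0) in every library, with knockdown (KD) left of control for the new set and then the first set; points are libraries and lines are group means. Clk1 and Clk4 separate by group in the new set and overlap in the first set, whereas Cwc22 and Luc7l3 separate in both.

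Clk1 and Clk4, the most alike of the CLK kinases in sequence, were at less than the control level by a similar margin in the new set and near it in the first. Clk1 had 23.1, 24.2 and 21 FPKM in new-set knockdown libraries 10, 11 and 12, against 53.6, 58.6 and 43.9 FPKM in the controls of the same numbers. No knockdown library reached a control library, and the knockdown mean was 43.8% of the control mean (22.8 ± 1.63 FPKM with knockdown and 52.0 ± 7.45 FPKM in controls, SD, n = 3 each; log2 fold change -1.15, SE 0.117). Clk4 had 22.8, 21.4 and 20.6 FPKM with knockdown, against 45.3, 48.8 and 41.3 FPKM in controls, 47.8% of the control mean (log2 fold change -1.03, SE 0.0906). Of all tested genes in the new set, 0.478% had a lower fold change than Clk1 and 0.7% a lower one than Clk4. First-set values of Clk1 were 108 and 86.2 FPKM with knockdown, against 121 and 106 FPKM in controls. Clk4 there had 87.3 and 73.9 FPKM with knockdown, against 92.1 and 86.4 FPKM in controls. The groups overlapped for both kinases, at 85.6% of control for Clk1 and 90.4% for Clk4, and the first-set fold change of Clk4 was -0.15 as deposited and 0.03 after rescaling.

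Clk3, a kinase of the same family, showed the reverse arrangement of the sets. It had 47.9, 49.6 and 43.3 FPKM in new-set knockdown libraries, against 47.2, 48.5 and 45.0 FPKM in controls, with a mean of 46.9 FPKM in both groups and an SE of 0.0826 on the log2 scale. First-set Clk3 had 37.4 and 31.3 FPKM with knockdown, against 53.3 and 51.4 FPKM in controls. Those groups did not overlap, and the knockdown mean was 65.6% of control (log2 fold change -0.60, SE 0.207). Clk2, which also phosphorylates SR proteins, had 15.1, 14.6 and 16.5 FPKM in new-set knockdown libraries, against 20.5, 16.5 and 24.4 FPKM in controls, so that knockdown library 12 lay level with control library 11 at the printed precision. Its first-set values were 8.29 and 8.02 FPKM with knockdown, against 7.68 and 12.6 FPKM in controls. Clk2 overlapped in both sets, with 75.4% of control in the new and 80.6% in the first, and its first-set sign turned to 0.08 without control library 2.

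The make-up of the CLK family shifted with these values. Over the 4 kinases the new-set sum was 107 ± 4.93 FPKM with knockdown and 165 ± 8.74 FPKM in controls (SD, n = 3 each). Clk3 made up 42.7% to 45.1% of it in knockdown libraries, against 28.1% to 29.1% in controls. Clk1 made up 20.7% to 22% with knockdown, against 28.4% to 34.0% in controls, and Clk4 19.5% to 20.9% with knockdown, against 26.7% to 28.3% in controls. Each of those 3 shares separated the groups. The first-set sum was 220 ± 29.7 FPKM with knockdown and 266 ± 12 FPKM in controls (SD, n = 2 each), and Clk3 held 15.5% and 15.7% with knockdown, against 19.5% and 20.0% in controls. The ratio of Clk1 to Clk4 stayed between 1.01 and 1.13 in new-set knockdown libraries and between 1.06 and 1.20 in controls, so it overlapped while both levels differed. That ratio was 1.24 and 1.17 with first-set knockdown and 1.31 and 1.23 in first-set controls.

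**Figure D2:**
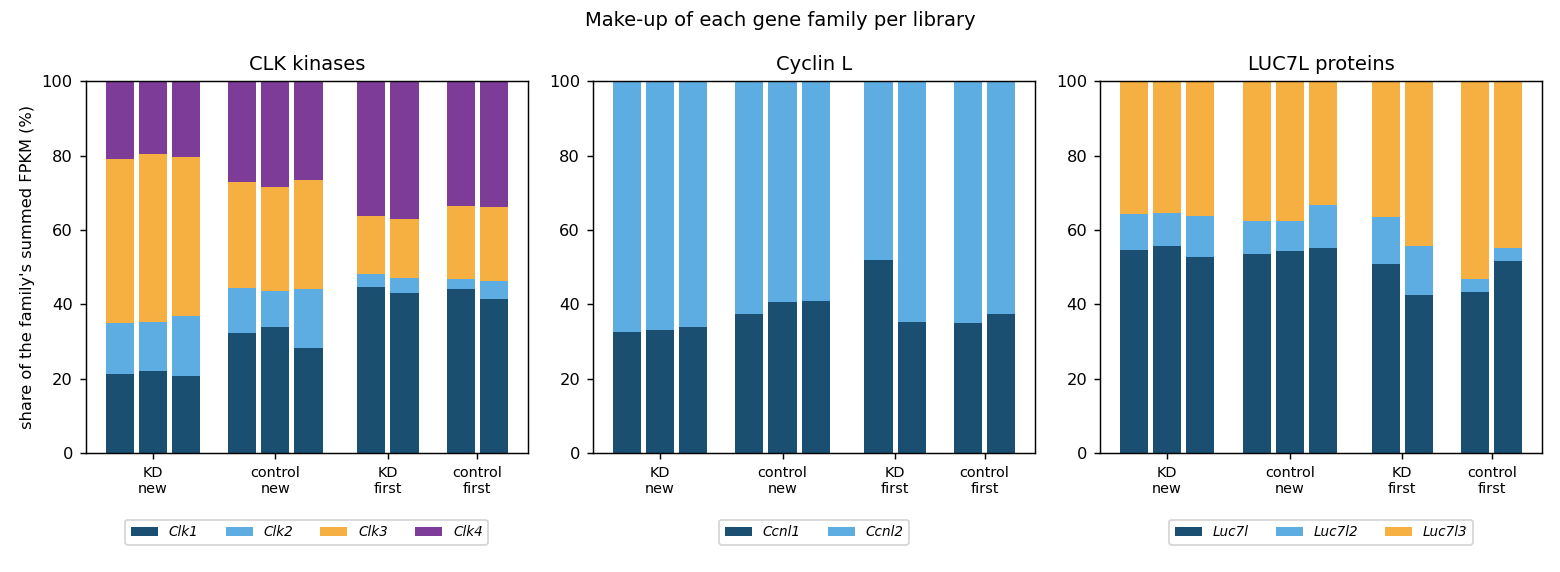
Share of each gene (percent, vertical axis from 0 to 100) in the summed FPKM of its family, 1 bar per library, with knockdown (KD) left of control in each set. Clk3 takes 42.7% to 45.1% of the CLK sum in new-set knockdown libraries, above the 28.1% to 29.1% of the controls, and Luc7l2 takes more of the LUC7L sum in the first-set knockdown libraries than in any first-set control.

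Both cyclin L genes were lower in the new-set knockdown libraries, and Ccnl1 by more. Ccnl1 had 20.5, 19.5 and 19.8 FPKM with knockdown, against 36.2, 41.5 and 40.9 FPKM in controls, 50.4% of the control mean (log2 fold change -0.95, SE 0.0852). Ccnl2, the more abundant paralog in that set, had 42.0, 39.5 and 38.4 FPKM with knockdown, against 60.9, 60.4 and 59.2 FPKM in controls, 66.4% of the control mean (log2 fold change -0.58, SE 0.0742). Neither overlapped, and the ratio of Ccnl1 to Ccnl2 was also separate, at 0.487 to 0.514 with knockdown and 0.595 to 0.690 in controls. First-set Ccnl1 had 28.5 and 18.3 FPKM with knockdown, against 16.9 and 23.2 FPKM in controls. Ccnl2 there had 26.3 and 33.5 FPKM with knockdown, against 31.2 and 38.5 FPKM in controls. Both overlapped, and Ccnl1 pointed upward in that set (log2 fold change 0.20, SE 0.288), with -0.11 when knockdown library 1 was left out. The summed cyclin L level was 59.9 ± 2.32 FPKM with knockdown and 99.7 ± 2.46 FPKM in controls in the new set (SD, n = 3 each), and 53.2 ± 2.19 FPKM with knockdown and 54.9 ± 9.62 FPKM in controls in the first (SD, n = 2 each).

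The LUC7L genes showed the larger differences in the first set. Luc7l3 had 91.8 and 95.1 FPKM in first-set knockdown libraries, against 256 and 291 FPKM in controls, 34.2% of the control mean (log2 fold change -1.54, SE 0.195). Luc7l had 128 and 91.6 FPKM with knockdown, against 208 and 335 FPKM in controls, 40.4% of the control mean (log2 fold change -1.28, SE 0.289). Neither gene overlapped, but the Luc7l controls lay far apart, and its fold change was -1.62 without control library 1 and -0.94 without control library 2. In the new set Luc7l3 had 23.6, 21.2 and 22.1 FPKM with knockdown, against 31.7, 36.4 and 30.9 FPKM in controls. Luc7l there had 36.2, 33.4 and 32.1 FPKM with knockdown, against 45.2, 52.4 and 50.9 FPKM in controls. The groups were again separate, at 67.7% of control for Luc7l3 and 68.5% for Luc7l.

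Luc7l2 was the 1 gene of the 10 whose groups separated in opposite directions. It had 6.46, 5.27 and 6.67 FPKM in new-set knockdown libraries, against 7.33, 7.71 and 10.6 FPKM in controls, 71.8% of the control mean (log2 fold change -0.41, SE 0.154, and -0.26 without control library 12). First-set knockdown libraries held 31.4 and 28.3 FPKM, against 16.6 and 22.2 FPKM in controls, 154% of the control mean (log2 fold change 0.61, SE 0.235). Its share of the LUC7L sum in the first set was 12.5% and 13.1% with knockdown, against 3.42% and 3.45% in controls. The ratio of Luc7l2 to Luc7l3 there was 0.342 and 0.297 with knockdown and 0.0648 and 0.0762 in controls. In the new set the LUC7L proportions overlapped between groups while the sum was 62.3 ± 3.46 FPKM with knockdown and 91.0 ± 6.21 FPKM in controls (SD, n = 3 each). Luc7l held a mean of 54.4% with knockdown and 54.3% in controls, and Luc7l3 held 35.8% with knockdown and 36.3% in controls.

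Cwc22 was lower by more than 1 log2 unit in both sets, alone among the 10 genes. It had 27.8, 27.8 and 21.6 FPKM in new-set knockdown libraries, against 55.8, 53.8 and 53.6 FPKM in controls, 47.3% of the control mean (log2 fold change -1.06, SE 0.108). It had 38.2 and 30.9 FPKM with first-set knockdown, against 94.8 and 87.1 FPKM in controls, 38% of the control mean (log2 fold change -1.38, SE 0.21). Of all tested genes, 0.673% had a lower new-set fold change and 1.45% a lower first-set one. The ratio of Cwc22 to Clk1 overlapped between groups in the new set, at 1.03 to 1.20 with knockdown and 0.918 to 1.22 in controls. First-set ratios were 0.354 and 0.358 with knockdown, against 0.787 and 0.820 in controls. Cwc22, Luc7l and Luc7l3 were the 3 genes of the 10 that were lower without overlap in both sets, a pattern shown by 823 of the 10827 genes tested in both tables (7.6%).

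**Figure D3:**
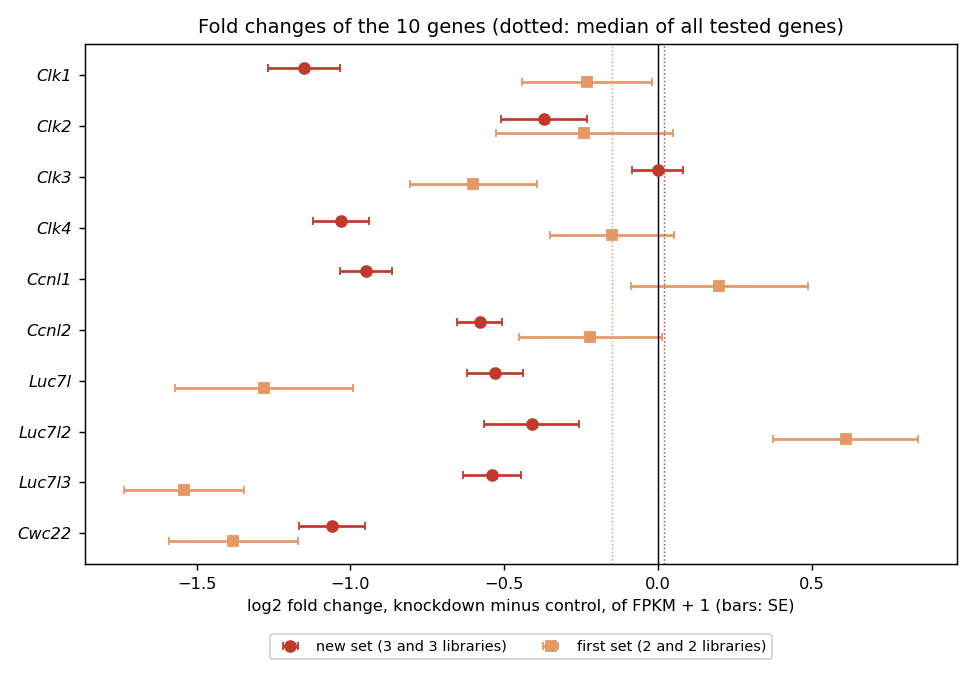
Log2 fold change of FPKM + 1 (horizontal axis, knockdown minus control) of each gene in the new set (circles) and the first set (squares), with bars of 1 SE from limma and dotted lines at the median of all tested genes (0.02 new, -0.15 first). Clk1, Clk4 and Ccnl1 lie farther below 0 in the new set, Luc7l and Luc7l3 in the first set, and Luc7l2 lies on opposite sides.

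Set side by side, the log2 fold changes were lower in the new set for Clk1 (-1.15 new, -0.23 first), Clk4 (-1.03 new, -0.15 first), Ccnl1 (-0.95 new, 0.20 first), Ccnl2 (-0.58 new, -0.22 first), Luc7l2 and Clk2. They were lower in the first set for Luc7l (-0.53 new, -1.28 first), Luc7l3 (-0.54 new, -1.54 first), Clk3 and Cwc22. The difference between the sets (new minus first) was -0.92 (SE 0.216) for Clk1, -0.88 (SE 0.177) for Clk4, -1.15 (SE 0.261) for Ccnl1 and -1.02 (SE 0.263) for Luc7l2. It was 0.60 (SE 0.172) for Clk3, 0.75 (SE 0.278) for Luc7l and 1 (SE 0.172) for Luc7l3. The smallest differences were -0.36 (SE 0.194) for Ccnl2, 0.32 (SE 0.203) for Cwc22 and -0.13 (SE 0.286) for Clk2. The median difference of all genes between the sets was 0.23 as deposited and 0.06 after rescaling. Rescaling also moved the first-set median of all genes to 0.01. After it the first-set fold changes were -0.05 for Clk1, 0.36 for Ccnl1, -1.10 for Luc7l, 0.78 for Luc7l2, -1.36 for Luc7l3 and -1.20 for Cwc22.

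The order of the levels changed with the group. In new-set knockdown libraries Clk3 was highest (46.9 ± 3.24 FPKM), followed by Ccnl2 (40.0 ± 1.87) and Luc7l (33.9 ± 2.11), each without overlap with the next (SD, n = 3 each). Cwc22, Clk1, Luc7l3 and Clk4 followed at 25.7 to 21.6 FPKM, where neighbours overlapped, and then Ccnl1, Clk2 and Luc7l2. In new-set controls Ccnl2 was highest (60.2 ± 0.87 FPKM), and the 7 genes from Cwc22 (54.4 FPKM) to Luc7l3 (33.0 FPKM) overlapped neighbour by neighbour, with Clk3 in the fifth place. First-set controls were led by Luc7l3 (274 ± 24.9 FPKM) and Luc7l (272 ± 89.8 FPKM), which overlapped and stood above Clk1 (113 ± 10.1 FPKM). First-set knockdown libraries had Luc7l, Clk1 and Luc7l3 together at 110, 97.1 and 93.5 FPKM, then Clk4 at 80.6 FPKM. Clk2 and Luc7l2 were the lowest pair in each group except the first-set knockdown libraries, where Luc7l2 stood above Ccnl1 with overlap.

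Across the 10 libraries, with each group's mean subtracted, the 45 pairs among the 10 genes had a median Pearson r of 0.237 and 29 were above 0. These libraries share their preparation, depth and scaling, so the values are a description. Clk1 and Clk4 varied together (r = 0.928), as did Clk3 with Cwc22 (0.906) and with Clk1 (0.862), and Ccnl1 with Luc7l (0.936). Clk2 and Luc7l2 formed another pair (0.815) and ran against Clk1, at -0.695 for Clk2 and -0.623 for Luc7l2. Luc7l and Luc7l3, so close in their fold changes, reached 0.495 within groups. When only the mean of each set was subtracted, so that the knockdown difference itself enters, Clk1 with Clk4 gave 0.992 and Luc7l with Luc7l3 gave 0.934.

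**Figure D4:**
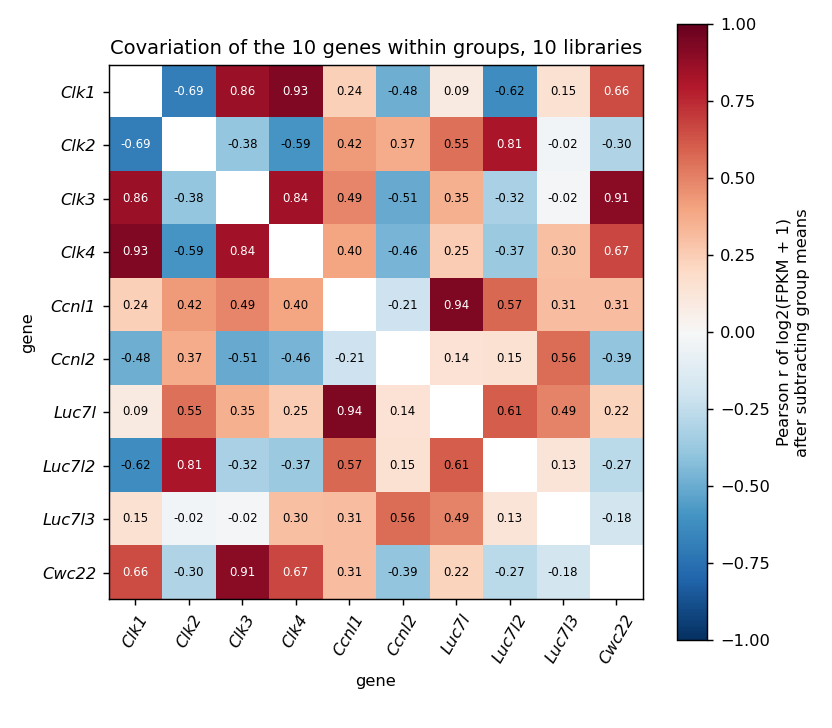
Pearson r between each pair of the 10 genes over 10 libraries (color, from -1 in blue to 1 in red, with the value in each cell) of log2(FPKM + 1) after subtracting each group's mean. Clk1, Clk3, Clk4 and Cwc22 form a red block, and Clk2 with Luc7l2 a second pair that is blue against Clk1. The 10 libraries are not independent points after this subtraction.

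The mean profile of the 10 genes, each centred on its set, was -0.27, -0.34 and -0.38 in new-set knockdown libraries, against 0.30, 0.35 and 0.34 in controls. First-set profiles were -0.14 and -0.34 with knockdown, against 0.13 and 0.35 in controls. The 6 genes most like that profile over the 10 libraries were Guf1 (r = 0.98), a mitochondrial translation factor gene, Mpped2 (0.979), the zinc finger gene Zfp949 (0.971), Zfp451 (0.969), Igfbp4 (0.965), which encodes an insulin-like growth factor binding protein, and Tex9 (0.96). Guf1 averaged 6.82 ± 0.144 FPKM in new-set knockdown libraries and 13.6 ± 0.828 FPKM in controls (SD, n = 3 each), and 4.45 ± 1.23 FPKM with knockdown and 6.67 ± 1.17 FPKM in controls in the first set (SD, n = 2 each). Mpped2 averaged 47.9 ± 0.79 FPKM with knockdown and 82.6 ± 7.17 FPKM in controls in the new set, and 29.3 ± 5.38 FPKM with knockdown and 45.5 ± 8.60 FPKM in controls in the first. These genes were picked for their likeness, so their fold changes were not tested.

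In the GENCODE M21 annotation (GRCm38), 9 of the 10 genes have at least 1 transcript classed as retained intron, as do 5927 of the 9785 genes tested in both sets and found there by symbol (60.6%). The counts were 7 of 13 transcripts for Clk1, 7 of 14 for Clk4, 8 of 14 for Ccnl1, 3 of 5 for Ccnl2, 4 of 11 for Clk2, 4 of 9 for Clk3, 2 of 9 for Luc7l, 3 of 13 for Luc7l2 and 2 of 10 for Luc7l3. Cwc22 was the exception, with 0 of 13. A transcript classed as a target of nonsense-mediated decay, the pathway that destroys messages with an early stop, was annotated for 90% of the 10 genes and 29.5% of those 9785 genes. FPKM per gene do not separate spliced from intron-holding transcripts, so which form was lower was not measured here. Some values carry an added doubt about counting. Of the 50-base stretches in the longest coding transcript of Cwc22, 31.9% also occur in other annotated genes, and for Luc7l2 the share was 10.1%, for Clk3 0.776% and for the other 7 genes 0. Exons of Clk3, Ccnl1 and Luc7l2 overlap a gene on the opposite strand and those of Clk4 and Cwc22 a gene on the same strand, and no source used here says whether counting used strand.

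The genes that work with these 10 were tested by limma, with p-values adjusted over all tested genes. Of all tested genes 5.15% fell and 3.84% rose in the new set, and 10.7% fell and 13.2% rose in the first. In the joined fit 20.5% fell and 9.37% rose. The counts of each list stand beside these shares, and no list was tested as a set. Calls within single sets depended on single libraries. Of 6 named genes of the splicing lists past the threshold in the new set, all 6 were lost when knockdown library 11 was left out (adjusted p 0.0514 to 0.162), 4 each without control 10, control 12 or knockdown 10, and 3 without knockdown 12. Of 13 in the first set, 12 were lost without knockdown 1, 12 without control 1, 12 without control 2 and 10 without knockdown 2, and none was kept in all of these refits. The joined fit called 38 genes of the splicing lists, named or not, of which 22 were kept whichever library was left out. Of the 23 named ones, which have the smallest p-values of each list, 16 were kept, and those lost were Srsf1, Dyrk1b, Srpk1, Ccnt1, Magohb, Aqr and Smg1. Srsf1 was lost without knockdown 11, control 10 or control 12 of the new set, without knockdown 1 or control 2 of the first, and after rescaling. Magohb was lost without knockdown 1 of the first set, and Aqr without knockdown 1 or control 1 of that set. The fold changes named as joined in the paragraphs on the splicing lists kept their call in each of those refits except where stated. With the replicate block, the number of genes that fell in the new set was 3 SR proteins, 1 other kinase, 1 cyclin or its kinase, 3 U1 genes, 2 exon junction genes and 5 speckle genes.

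Among 13 SR proteins, the substrates of the CLK kinases, 2 fell in the new set (Srsf4 and Srsf5), 2 fell in the first (Srsf10 and Srsf11), 6 fell in the joined fit and none rose in any of the 3 fits (0 rose at an unadjusted p under 0.05). The joined count was 3 after rescaling and 3 to 7 when 1 library was left out. Falling genes were 5.15% of all tested genes in the new set, 10.7% in the first and 20.5% in the joined fit. Srsf10, a splicing repressor when dephosphorylated, averaged 115 ± 3.89 FPKM with knockdown and 116 ± 7.19 FPKM in controls in the new set (SD, n = 3 each), and 94.6 ± 23.8 FPKM with knockdown and 188 ± 24.5 FPKM in controls in the first (SD, n = 2 each). Its joined log2 fold change was -0.51 (SE 0.11, adjusted p = 0.00667 by limma). Srsf5 averaged 148 ± 15.2 FPKM with knockdown and 210 ± 3.51 FPKM in controls in the new set, with a joined fold change of -0.41 (SE 0.0901, limma adjusted p = 0.00751). The median fold change of the SR proteins was -0.03 in the new set, where the median of the 10 genes was -0.56. In the first set it was -0.54, where the median of the 10 genes was -0.24.

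Of 7 tested kinases outside the CLK family that also act on SR proteins or belong to the related DYRK group, none passed limma's threshold in the new set (1 fell at an unadjusted p under 0.05). In the joined fit Srpk1, Srpk2 and Prpf4b fell and Dyrk1b rose, beside 20.5% and 9.37% of all tested genes. Srpk2, an SR protein kinase of the cytoplasm and nucleus, averaged 18.9 ± 0.889 FPKM with knockdown and 18.2 ± 1.41 FPKM in controls in the new set (SD, n = 3 each), and 33.9 ± 2.86 FPKM with knockdown and 71.9 ± 2.19 FPKM in controls in the first (SD, n = 2 each). Its difference between sets was 1.12 (SE 0.174, limma adjusted p = 0.00149). Prpf4b, a kinase of the spliceosome, had a joined fold change of -0.47 (SE 0.0828, limma adjusted p = 0.00258). Srpk1 was lost without control 12 or any knockdown library of the new set and after rescaling, and Dyrk1b without control 2 of the first set. Dyrk1b had a new-set fold change of 0.03, and averaged 1.6 FPKM with knockdown and 0.447 FPKM in controls in the first set. It thus passed the filter of 1 FPKM in the first set only through the knockdown libraries, and was not tested when either was left out. The olfactory receptor mean was 1.39 and 0.993 FPKM in those knockdown libraries. The part of that background in the rise of Dyrk1b was not tested. Among 9 cyclin L partners and other cyclins and kinases of transcription, Ccnt2 fell in the new set, none passed by limma in the first (1 rose and 1 fell at an unadjusted p under 0.05), and Ccnt1 fell in the joined fit. Both encode cyclin T, and both calls were lost when single libraries were left out. Ccnt2 was lost without control 10 or 12 or any knockdown library, and Ccnt1 without control 10 or knockdown 12 of the new set, without control 1 of the first set, and after rescaling.

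Among 16 proteins of the U1 snRNP or bound to it, 1 fell in the new set, and 4 fell and 1 rose in the first. In the joined fit 5 fell and 2 rose, beside 20.5% and 9.37% of all tested genes. Leaving out 1 library there gave 6 to 9 changed genes. Prpf39, a U1-associated factor, averaged 13.2 ± 0.86 FPKM with knockdown and 20.7 ± 1.11 FPKM in controls in the new set (SD, n = 3 each), and 24.1 ± 5.18 FPKM with knockdown and 37.5 ± 2.13 FPKM in controls in the first (SD, n = 2 each). Its joined fold change was -0.62 (SE 0.103, limma adjusted p = 0.00206). Tia1, Tial1 and Rbm25, which help U1 find weak splice sites, also fell in the joined fit, with fold changes of -0.49, -0.72 and -0.43. Snrnp70, a core U1 protein, and Snrpc rose in the joined fit, by 0.51 and 0.45 (limma adjusted p = 0.00711 and 0.0321). Their new-set fold changes were 0.00 and 0.06 and their first-set ones 1.02 and 0.85, and Snrpc was lost in 7 of 10 refits that left out 1 library, kept only without knockdown 2 or control 1 of the first set or control 11 of the new. The list's new-set median fold change was 0.02 and its first-set median -0.09, beside the LUC7L values of -0.41 to -0.54 in the new set.

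Of 15 exon junction complex genes and partners of Cwc22, 1 fell in the new set (Pnn) and 2 fell in the first. In the joined fit 5 fell and 2 rose, beside 20.5% and 9.37% of all tested genes. Leaving out 1 library there gave 4 to 6 changed genes. Pnn, whose product binds the exon junction complex, averaged 31.8 ± 1.08 FPKM with knockdown and 43.4 ± 2.51 FPKM in controls in the new set (SD, n = 3 each), and 46.9 ± 1.07 FPKM with knockdown and 64.9 ± 2.10 FPKM in controls in the first (SD, n = 2 each). Its joined fold change was -0.45 (SE 0.0783, limma adjusted p = 0.00256). Smg1, the kinase that phosphorylates Upf1 in nonsense-mediated decay, averaged 1.55 ± 0.056 FPKM with knockdown and 2.03 ± 0.443 FPKM in controls in the new set (SD, n = 3 each), and 3.01 ± 0.52 FPKM with knockdown and 4.87 ± 0.80 FPKM in controls in the first (SD, n = 2 each). It fell in the joined fit, with a fold change of -0.39 (SE 0.126, limma adjusted p = 0.0354). Smg1 was lost without 7 of the 10 libraries, all but control 11 of the new set and knockdown 2 and control 1 of the first.

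The nuclear speckle and RS-domain genes, many of which share the serine- and arginine-rich domains or nuclear location of the CLK kinases and cyclin L, held the largest share of changed genes among the 7 splicing lists in the joined fit. By limma 3 of 15 fell in the new set, and 5 of 16 fell and 1 rose in the first. The riser was Neat1, a long noncoding RNA of nuclear paraspeckles, with a first-set fold change of 1.59; it did not pass the filter on low values in the new table and so is not in the joined fit. In the joined fit 11 of 15 fell and none rose (1 rose at an unadjusted p under 0.05), beside 20.5% and 9.37% of all tested genes. The count was 9 to 12 when 1 library was left out. The list's new-set median fold change was -0.18 and its first-set median -0.51. Sfrs18, the older symbol of Pnisr, averaged 13.6 ± 2.27 FPKM with knockdown and 24.9 ± 0.828 FPKM in controls in the new set (SD, n = 3 each), and 56.2 ± 2.10 FPKM with knockdown and 79.8 ± 7.57 FPKM in controls in the first (SD, n = 2 each; joined fold change -0.67, SE 0.1, limma adjusted p = 0.00142). Arglu1 averaged 50.9 ± 4.60 FPKM with knockdown and 61.8 ± 6.23 FPKM in controls in the new set and 210 ± 59.3 FPKM with knockdown and 600 ± 134 FPKM in controls in the first (joined fold change -0.90, limma adjusted p = 0.00134). Rbm5 and Ogt, the gene of the O-GlcNAc transferase whose own transcript keeps an intron, had joined fold changes of -0.71 and -0.80. Arglu1, Rbm5 and Ogt differed between the sets by 1.25, 1.19 and 1.23 (limma adjusted p = 0.00582, 0.00303 and 0.00675). The differences of Luc7l and Luc7l3, not tested here, had the same sign. So did the median difference of all genes, at 0.23 as deposited and 0.06 after rescaling. Of all genes 22.5% were called positive and 9.98% negative.

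**Figure D5:**
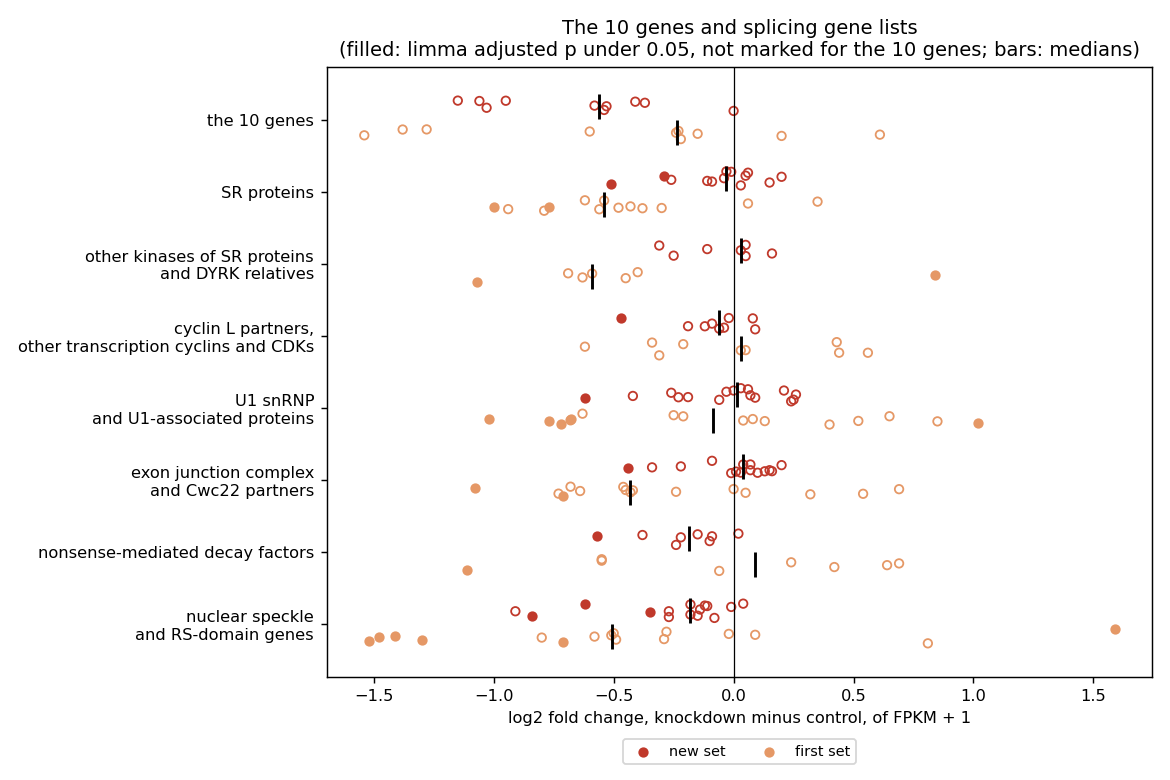
Log2 fold change of FPKM + 1 (horizontal axis, knockdown minus control) of the 10 genes and of every tested gene of 7 splicing lists, new set above first set in each row; filled points passed limma's adjusted p of 0.05 over all tested genes, which is not marked for the 10 genes, and bars are medians. The 10 genes have a new-set median of -0.56, and the SR proteins one of -0.03. In the first set the order is reversed, at -0.24 for the 10 genes and -0.54 for the SR proteins.

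Other gene groups were measured beside these, with calls by limma adjusted over all genes. Of all tested genes 5.15% fell and 3.84% rose in the new set, and 10.7% fell and 13.2% rose in the first. Over the 17 immediate early genes, which respond to stimulation and tissue handling within minutes, the summed level was 272 to 291 FPKM in new-set knockdown libraries and 342 to 379 FPKM in controls, and 523 to 530 FPKM with knockdown and 294 to 346 FPKM in controls in the first set. Of those tested, 3 of 12 fell in the new set (5 with the replicate block), and 12 of 16 rose and 1 fell in the first. Among the risers Arc (6.82 FPKM with knockdown, 0.4 FPKM in controls) passed the filter only through the knockdown libraries. The new-set count was 0 to 4 when 1 library was left out. The 11 heat shock genes summed to 3150 to 3820 FPKM with knockdown and 2550 to 3120 FPKM in controls in the new set, and to 3740 to 4360 FPKM with knockdown and 5200 to 6150 FPKM in controls in the first, where Hspa1a and Hspb1 were at 0 in both controls. None of the 8 tested passed limma's threshold in either set; at an unadjusted p under 0.05, 4 rose in the new set and 2 fell in the first, and with the replicate block 3 rose in the new set. Summed neuron markers (11 genes) were 3400 to 4200 FPKM with knockdown and 2430 to 2880 FPKM in controls in the new set, and 3130 to 3390 FPKM with knockdown and 4380 to 4960 FPKM in controls in the first. Of the 11, 3 rose in the new set (8 with the replicate block) and 4 fell in the first. The new-set count of changed neuron markers was 0 to 5 when 1 library was left out, and first-set calls rest on 2 libraries a group. Summed radial glia markers (11 genes) were 1020 to 1570 FPKM with knockdown and 1240 to 1580 FPKM in controls in the new set, with 7 falling, and 1040 to 2200 FPKM with knockdown and 1840 to 1860 FPKM in controls in the first, with 3 falling. Intermediate progenitor markers (8 genes) summed to 608 to 673 FPKM with knockdown and 885 to 1040 FPKM in controls in the new set and to 614 to 1040 FPKM with knockdown and 618 to 631 FPKM in controls in the first. Of the 8, 3 fell in the new set (5 with the replicate block), and 2 rose and 2 fell in the first. The new-set count of changed intermediate progenitor markers was 1 to 3 when 1 library was left out. Interneuron markers (8 genes) summed to 9.18 to 9.29 FPKM with knockdown and 18.6 to 27.6 FPKM in controls in the new set and to 18.1 to 46.2 FPKM with knockdown and 22.9 to 44.6 FPKM in controls in the first. All 5 tested fell in the new set, and none of 8 passed by limma in the first (1 fell at an unadjusted p under 0.05). Of the 5, Lhx6 (0.75 FPKM with knockdown, 1.79 FPKM in controls) and Dlx2 (0.971 and 3.36 FPKM) passed the filter of 1 FPKM only through the controls. The new-set count of changed interneuron markers was 0 to 5 when 1 library was left out. Microglia markers (7 genes) summed to 1.66 to 6.61 FPKM with knockdown and 3.15 to 9.91 FPKM in controls in the new set and to 13.1 to 23.3 FPKM with knockdown and 1.39 to 5.28 FPKM in controls in the first, and erythroid markers (6 genes) to 23.2 to 114 FPKM with knockdown and 137 to 264 FPKM in controls in the new set and to 1.41 to 42.7 FPKM with knockdown and 16.6 to 19 FPKM in controls in the first. Of the microglia markers 4 of 6 tested rose in the first set (1 to 3 changed when 1 library was left out). Among them C1qc averaged 2.53 FPKM with knockdown and 0.0331 FPKM in controls, and Tyrobp 3.84 and 0.604 FPKM. Both passed the filter only through the knockdown libraries. The olfactory receptor mean in those libraries was 1.39 and 0.993 FPKM, and its part in these rises was not tested. Of 3 microglia markers tested in the new set none passed by limma (1 fell at an unadjusted p under 0.05, and 1 with the replicate block). Of the erythroid markers 2 of 4 tested fell in the new set, and of 2 in the first none passed by limma (0 at an unadjusted p under 0.05). The summed levels of radial glia markers overlapped between groups in both sets, those of microglia markers in the new set, and those of intermediate progenitor, interneuron and erythroid markers in the first. The part of these groups, and of the olfactory receptor background, in the differences of the 10 genes was not tested.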

How the data were processed

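RNA sequencing was done on 10 libraries of sorted GFP-positive cortical cells. Per the labels' protocols an RNeasy Plus kit gave the total RNA and a Clontech low-input kit the libraries. Per the submitters' processing notes TopHat2, Bowtie, Cufflinks 2.0.0 and Cuffdiff were used with build mm9; no source used here gives the annotation or strand setting. The authors deposited FPKM values in 2 tables, with no counts, so absolute depth is unknown.

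From these, log2(FPKM + 1) was computed, genes averaging 1 FPKM or more in a table were kept, and limma 3.58.1 (R 4.3.3; two-sided moderated tests with an intensity trend) was fitted to each set and to both sets jointly, with Benjamini-Hochberg adjustment over all tested genes and a threshold of 0.05. The joined fit gives the mean of both fold changes and their difference (new minus first). Fold changes on this scale understate changes of low genes. The fits were tested on simulated data. An exact two-sided permutation test of Chd8 gave p = 0.1, 0.333 and 0.0167 for the new set, the first set and both, each the smallest its design allows.

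The 10 genes and the gene lists were chosen with earlier results of these data known. Named genes are the 10, Chd8, up to 4 genes per list with the smallest joined p, and the 6 genes most like the mean profile. Other genes named as passing in a list were chosen after their values were seen.

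In the new set, deviations from group means correlated at 0.122, 0.242 and 0.193 for equal replicate numbers, and between -0.162 and -0.0133 for unequal ones. Deviations within a group sum to 0, so positive values for equal numbers force negative ones elsewhere. Whether the numbers mark pairs is not settled by these values, and the main fits do not use them. In the first set the value was -0.0285 for equal numbers and 0.0285 for unequal ones. With 2 libraries a group these must mirror each other, so pairing cannot be judged there. With the replicate block 2452 genes changed in the new set, against 1015 without it. The design text names replicates as biological and pooled. Alternatives were another pseudocount, other filters, rescaling, background subtraction, no trend, the block and leaving out each library. Some results are not reported here.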

Additional observations from a re-analysis of the deposited data

Results flagged for a closer look

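Luc7l2 had a log2 fold change that was lower by 1.02 in the new set than in the first (new minus first -1.02), with all knockdown libraries below the controls in the new set and above them in the first; that difference was not tested, because the gene was chosen on these contrasts.

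Other genes differed between the sets by limma's test of the difference, again as new minus first. Among SR proteins and their kinases the differences were 0.98 for Srsf10, 0.68 for Srsf11, 0.76 for Srsf1, 1.12 for Srpk2, 0.64 for Srpk1 and -0.81 for Dyrk1b. Among the cyclin, U1 and exon junction genes they were 0.58 for Ccnt1, -0.62 for Cdk7, 0.49 for Rbm25, 0.73 for Cdc5l, -0.62 for Magohb and 1.23 for Aqr. The decay factor Upf3a differed by -0.72. Speckle genes differed by 1.25 (Arglu1), 1.19 (Rbm5) and 1.23 (Ogt), and the chaperone gene Hspd1 by 0.61. The immediate early genes had the largest differences among those listed here, at -3.54 for Ier2, -3.93 for Nr4a1, -2.81 for Arc and -4.49 for Egr1. Arc averaged 6.82 FPKM with knockdown and 0.4 FPKM in controls in the first set, and 0.846 and 1.32 FPKM in the new. It thus passed the filter only through the first-set knockdown libraries and the new-set controls, and its difference rests on that. New-set Nr4a1 (0.997 FPKM with knockdown, 1.8 FPKM in controls) also passed only through the controls. Of 21 such named differences in the pathway lists, 12 kept their call whichever library was left out. The call was lost in 8 of 10 such refits for Rbm25, 7 for Ccnt1, 6 each for Srsf11 and Magohb, 5 each for Srsf1 and Cdk7, 4 for Hspd1, 2 for Upf3a and 4 of 8 for Dyrk1b, and each of the 10 libraries cost 2 to 8 calls. Rescaling ended the call of Rbm25 (limma adjusted p = 0.212), Ccnt1 (0.139), Hspd1 (0.102), Srsf1 (0.093), Srsf11 (0.082) and Srpk1 (0.0647), and background subtraction that of Cdk7 (0.0614). Rbm25 was also lost with a pseudocount of 0.1 FPKM (0.0502), without the intensity trend (0.0678) and with the replicate block (0.0536). First-set Dyrk1b averaged 1.6 FPKM with knockdown and 0.447 FPKM in controls, so it passed the filter there only through the knockdown libraries. In those knockdown libraries the olfactory receptor mean was 1.39 and 0.993 FPKM, and its part in the Dyrk1b difference was not tested. Over all genes 32.5% differed between the sets (22.5% positive and 9.98% negative), and shRNA, set and table change together.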

How the results depend on the processing

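The count of changed genes was 1015 in the new set, 470 with no filter on low values, and 88 to 1883 when 1 library was left out (88 without knockdown 11, 1883 without control 11, and 201 to 292 without any of the others). In the first set it was 2971, 1602 with a minimum of 5 FPKM, and 713 to 1247 without 1 library, so each of the 4 libraries lowered it by more than 1.5 times. The joined count of 3238 became 5917, and the count of differences between sets, 3520, became 6345, with no filter. The block on the replicate numbers gave 2452 genes in the new set, and moved no other count of all genes by over 1.5 times. In the joined fit it took Ccnl1 back over the threshold, and rescaling took Ccnl1 and Clk3. Of the changed genes in the first set, 55.2% were higher as deposited, 74.3% after rescaling and 30.6% after background subtraction; in the joined fit 31.3%, 46.6% and 17.6%; between sets 69.3%, 51.6% and 83.4%.

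The median fold change of the 10 genes in the first set was -0.47 to -0.26 without 1 library, against -0.24 with all, -0.07 after rescaling and -0.36 after background subtraction. Chd8 in the new set had -0.70 to -0.59 without 1 library and lost its call in each of these refits except the one without control 11. Among single fold changes of the 10 genes, 558 alternative values moved by less than the pooled SD of log2 values within groups and 22 moved further. Those of named pathway genes kept their side of the threshold in 1826 alternatives, lost the threshold in 184 and gained it in 46. A change of sign between values short of the threshold was not counted. The cause of these changes was not tested. Absolute depth is unknown, so what it limits cannot be stated. With 2 libraries a group the first set cannot give a stable error for a single gene.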
